A study of Mus musculus with 6 samples.

Results

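The cadherin and protocadherin genes were followed through the authors' deposited table of ATAC-seq peaks that compares mouse embryonic stem cells without Lmna with their controls. All peaks whose assigned gene symbol begins with Cdh or Pcdh and carries a number were taken, with Cdh5 left out, which gave 878 of 65535 listed peaks and 73 of 17625 genes with a listed peak. RefSeq (GRCm38.p6) holds 97 mouse genes whose symbols fit the same rule, so 24 of them had no listed peak. Of the 878 peaks, 472 lay in distal chromosome 14 (mm10, from 75.1 Mb to the end), where nearly all peaks of any gene were higher in the knockout cells, and they belonged to Pcdh9, Pcdh20, Pcdh17 and Pcdh8. The remaining 406 peaks of 69 genes are therefore given apart from them throughout.

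ATAC-seq counts the sites where the Tn5 transposase can cut DNA in permeabilised nuclei, so that open chromatin gives more reads. The tested cells were Lmna knockout E14 embryonic stem cells (3 libraries), and the controls were E14 cells labelled wild type at Lmna (3 libraries). Both carried the Nkx2-5-EmGFP reporter, grew on mitomycin-treated mouse embryonic fibroblasts with leukemia inhibitory factor, and were preplated before collection to reduce the feeders. Nothing in the labels states that replicate libraries came from separate cultures or clones. The deposited p-values then rest on the spread among the libraries alone, and part of it may be technical.

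Cadherins are membrane proteins whose outer domains bind calcium and hold neighbouring cells together. Classical cadherins (type I and type II) are anchored to actin through catenins. Protocadherins lack the catenin-binding tail and are best known from the nervous system, where the clustered alpha, beta and gamma genes give single neurons different surface identities. E-cadherin (Cdh1) is the main classical cadherin of embryonic stem cells, and a change from E-cadherin to N-cadherin (Cdh2) accompanies the exit from the epithelial state in the early embryo.

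Each deposited value is a group mean, a log2 fold or a p-value for the whole comparison. Concentrations are log2 of the mean normalized reads of a peak, and a positive log2 fold means higher accessibility in the knockout cells. A peak with an FDR of 0.05 or less is called gained or lost here. Values per library were not analysed here, so the spread within a group and the depth per library are unknown. The table ends at a p-value of 0.422, and about 33600 of some 99100 tested peaks are not listed. Weak peaks therefore appear in it only where their fold is large. Each peak carries the gene of the nearest annotated transcription start site (TSS), which does not show that it acts on that gene. At Lmna itself, the deposited concentration of the peak at chr3:88492472-88493370 (mm10) was 2.00 in knockout cells and 6.27 in control cells (log2 fold -4.27, FDR 4.44e-20). Of the other 4 listed Lmna peaks, 1 was lost (deposited log2 fold -3.93), 2 were gained (1.52 and 0.61) and 1 was not called. All 5 stem cell markers looked up had a listed promoter peak, and of these 7 peaks, 3 of Esrrb and 1 of Pou5f1 were gained in the deposited table, while those of Klf4, Nanog and Sox2 were not called. Of 7 feeder fibroblast markers, 5 had listed promoter peaks (6 peaks, none called), with concentrations of 3.33 to 6.27 in knockout and 2.63 to 5.75 in control cells, and the feeders' part in the results below was not tested.

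Outside distal chromosome 14, 28 of the 406 member peaks were gained and 12 were lost in the deposited table. The gained share was 6.90%, against 11.8% of all listed peaks there, and the lost share was 2.96%, against 2.43%. By gene, 18 of 69 members had a gained peak (26.1%), against 28.2% of all genes there, and 6 had a lost peak (8.70%), against 7.24%. The deposited folds were nearly balanced in sign: 208 of 406 (51.2%) were positive, against 66.7% of all listed peaks outside the segment. Their median was 0.25 (quartiles -0.96 and 0.77), against 0.45. The sign of that median rested on the 53 peaks of the clustered protocadherins (deposited median 0.56, 79.2% positive), since the other 353 member peaks had a median of -0.40, with 166 positive (47.0%). Gained shares of the members were thus below, and lost shares slightly above, those of all listed peaks, a comparison that was not tested.

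With distal chromosome 14 included, 346 of 878 member peaks were gained (39.4%, against 16.1% of all listed peaks) and 12 were lost (1.37%, against 2.26%), and 22 of 73 genes had a gained peak (30.1%, against 28.8% of all genes) and 6 a lost one (8.22%, against 7.19%). Inside it, 318 of 472 member peaks were gained and none was lost. That is 67.4%, against 71.0% of the 4358 other listed peaks of the segment. The deposited median log2 fold was 1.62 for member peaks and 1.69 for the others in the segment, and 470 of the 472 member folds were positive. The folds of the members in the segment therefore stood at the level of the segment as a whole. Reads per peak also depend on how many copies of the DNA a cell holds, which was not measured in the data used here, so copy number and accessibility cannot be told apart for these 4 genes.

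**Figure D1:**
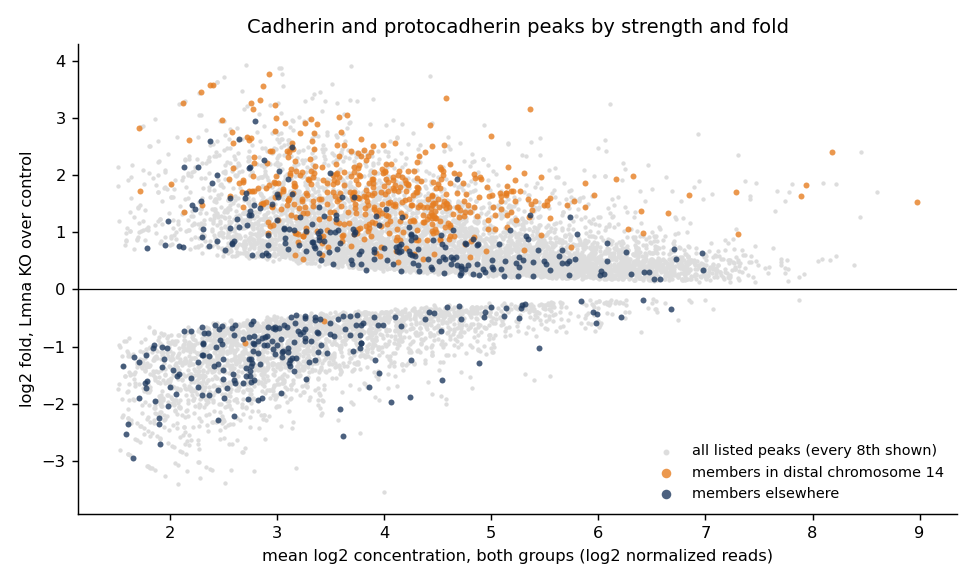
Deposited log2 fold (Lmna KO over control) of each member peak against its mean log2 concentration, over all listed peaks in grey (every 8th shown); orange points are the 472 member peaks in distal chromosome 14 and dark blue points the 406 elsewhere. The orange points lie above 0 with 2 exceptions, the blue ones fall on both sides (208 above, 198 below), and the empty band around 0 is where peaks with p above 0.422 are not listed.

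The type I classical cadherins, which form the main adherens junctions of epithelia, nerve and muscle, had 30 listed peaks at 5 of 5 genes, with 3 gained (beside 11.8% of all listed peaks outside distal chromosome 14) and none lost in the deposited table (beside 2.43%). Their median log2 fold was 0.62. Cdh1, E-cadherin, was gained at its promoter, chr8:106603067-106604284, where the deposited concentration was 6.43 in knockout and 5.61 in control cells (log2 fold 0.82, FDR 0.00346). Its other 4 listed peaks, 3 of them in its introns, were positive too, with deposited folds of 0.27 to 0.59 and none called. Cdh4, R-cadherin of the retina and brain, was gained at its promoter, chr2:179442126-179443772, with a deposited 6.55 in knockout against 5.90 in control cells (0.65, FDR 0.0284). It was the one called peak among 11 listed at Cdh4.

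Cdh2, N-cadherin, had folds of both signs. Its called peak lies in an intron, chr18:16713165-16713995, with a deposited concentration of 5.72 in knockout and 4.79 in control cells (log2 fold 0.93, FDR 0.0124). Its peak annotated as a promoter, chr18:16669544-16671644, had 4.87 in knockout and 5.34 in control cells in the deposited table (-0.46, FDR 0.334). That peak is 138 kb inside the RefSeq gene, at the start of a shorter transcript. No peak at the RefSeq start of Cdh2 is listed. Cdh3, P-cadherin of placenta and skin, had 2 listed peaks, neither called, and the one nearest its TSS had a deposited 4.63 in knockout and 3.92 in control cells (0.71, FDR 0.218). Cdh15, M-cadherin of muscle, had 1 listed peak, which was not called (deposited log2 fold 0.87). The 3 gains of this group were modest: the highest linear fold was 1.91, at Cdh2.

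Type II classical cadherins, most of them known from the brain, sorted neuron pools and mesenchyme, had 212 listed peaks at 12 of 12 genes. By the deposited FDR 15 were gained (7.08%, against 11.8% of all listed peaks outside the segment) and 6 lost (2.83%, against 2.43%), and the median log2 fold was -0.51. Many of these peaks lay far from a start: 149 of 212 (70.3%) were over 100 kb from a TSS, against 17.4% of all listed peaks outside distal chromosome 14, and only 7 were annotated as promoters, none of them called.

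Cdh11, a cadherin of bone-forming and other mesenchymal cells, held the called loss of smallest FDR among all members. At chr8:102706964-102707594, in its own intron, the deposited concentration was 1.83 in knockout and 4.40 in control cells (log2 fold -2.56, FDR 6.19e-04), a 5.90-fold lower level in the knockout. Another Cdh11 peak, intergenic, was lost in the deposited table (-2.21), and 2 were gained (2.27 in an intron of the gene and 2.94 between genes), so the 24 listed peaks of this gene moved both ways. Cdh20, known from the neural tube, likewise had 2 gained and 2 lost of 29. Its called peak of smallest FDR, chr1:103748959-103749871, lies 1018.7 kb from the TSS and had a deposited 2.19 in knockout and 4.28 in control cells (-2.09, FDR 0.00759), while an intronic peak of the same gene was gained (1.04).

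Cdh18, a cadherin of the central nervous system, had losses only among its calls: 2 of 25 listed peaks were lost and 19 folds were negative. The stronger, chr15:24124151-24124970, lies 950.3 kb from the nearest annotated TSS and 1575253 bases from the RefSeq start of the gene. Its deposited concentration was 3.54 in knockout and 5.12 in control cells (log2 fold -1.58, FDR 0.00162). The other lost peak was in an intron of Cdh18 (deposited log2 fold -1.02, FDR 0.00721). Cdh18 had the lowest median fold of the type II genes with 10 or more listed peaks (deposited -1.09).

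Cdh9, which takes part in synapse formation in the hippocampus, showed the opposite, with 6 of 30 listed peaks gained and none lost. All 6 are intergenic, at 98.5 to 1285.1 kb from the TSS. The one of smallest FDR, chr15:16130264-16131532, had a deposited 7.26 in knockout against 6.62 in control cells (0.64, FDR 0.00263), and the deposited folds of the 6 ran from 0.54 to 2.63. Its 24 uncalled peaks held folds of both signs, so 16 of 30 were positive in all.

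The remaining type II calls were distal or exonic peaks. Cdh6, of kidney and neural crest, gained a peak 1156.3 kb from its TSS, chr15:14330006-14330719 (deposited 4.56 in knockout, 3.14 in control cells, log2 fold 1.41, FDR 0.0295). Cdh7, of neural crest and spinal cord, gained chr1:109729884-109730443 (deposited 4.67 in knockout, 3.40 in control cells, 1.27, FDR 0.0266). Both of these peaks lie between genes. Cdh19, of the Schwann cell lineage, gained 2 of 23, led by chr1:111087259-111087986 (deposited 3.44 in knockout, 1.31 in control cells, 2.13, FDR 0.0409). Cdh22, of brain and pituitary, gained a peak annotated as exonic, chr2:165161846-165162385 (deposited 4.20 in knockout, 2.59 in control cells, 1.61, FDR 0.0224). The annotated exon was not assigned to Cdh22. Each of these genes had more uncalled than called peaks, and Cdh6, Cdh7 and Cdh19 had more negative than positive deposited folds (11, 15 and 13 negative of 21, 27 and 23 listed). Cdh8, Cdh10, Cdh12 and Cdh24 had 10, 4, 14 and 2 listed peaks and no call.

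**Figure D2:**
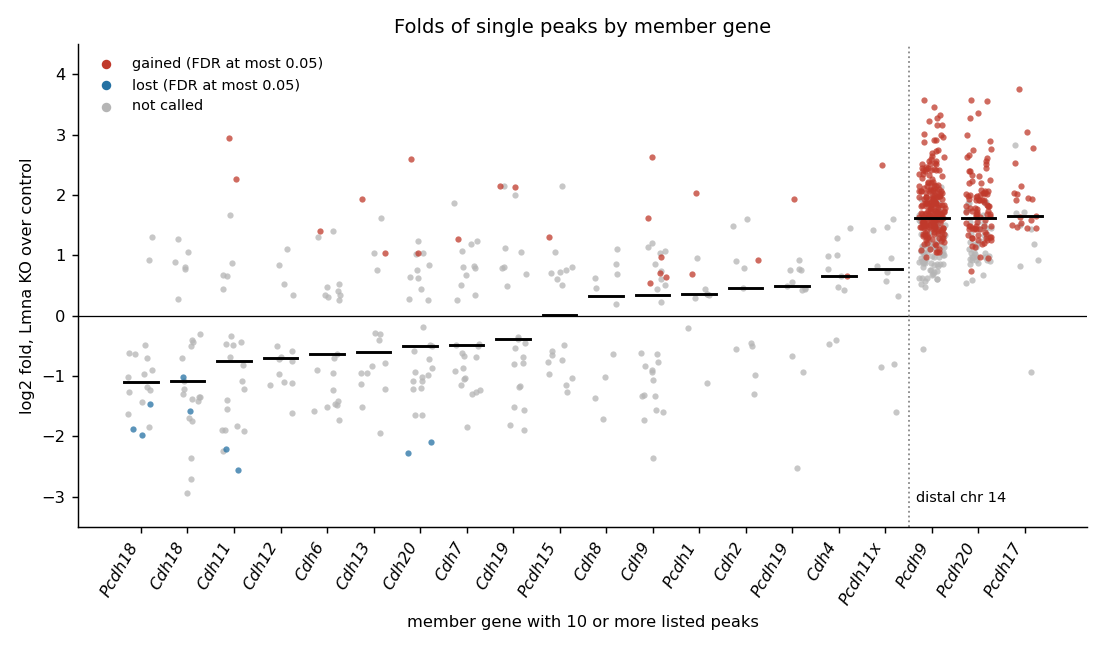
Deposited log2 fold (Lmna KO over control) of every listed peak of the 20 member genes with 10 or more listed peaks, ordered by their median (black bar) with the genes of distal chromosome 14 at the right; red points are gained, blue points lost and grey points not called. Pcdh9, Pcdh20 and Pcdh17 have medians of 1.61 to 1.65, while the medians of the other 17 genes run from -1.10 (Pcdh18) to 0.77 (Pcdh11x).

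The other cadherins had 55 listed peaks at 9 of 11 genes, with 4 gained (7.27%, beside 11.8% of all listed peaks outside the segment) and 2 lost (3.64%, beside 2.43%) and a deposited median of -0.41. Cdh13, T-cadherin, a receptor for adiponectin and lipoproteins that is held by a lipid anchor, carried the gain of smallest FDR outside distal chromosome 14. At chr8:118801633-118803425, in its own intron, the deposited concentration was 5.34 in knockout and 3.41 in control cells (log2 fold 1.93, FDR 1.7e-05), a 3.81-fold higher level. A further intronic peak was gained (deposited 1.04), although 11 of the 16 listed Cdh13 peaks were negative. Cdh17, the liver-intestine cadherin, gained an intronic peak 10.9 kb from its TSS, chr4:11769123-11770272, with a deposited 6.23 in knockout and 4.97 in control cells (1.27, FDR 1.28e-04), and its other 2 peaks were positive and uncalled.

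Cdh23 and Pcdh15 together form the tip links of hair cells in the inner ear. Pcdh15 gained an intergenic peak, chr10:74674798-74675862, with a deposited concentration of 5.88 in knockout and 4.56 in control cells (log2 fold 1.31, FDR 4.46e-04), and its 18 listed folds were split evenly in sign. Cdh23 had 4 listed peaks, 3 at annotated promoters, and none was called (deposited -1.03 to 0.97). All 7 listed peaks of Cdh26 were negative: they are intergenic, with deposited folds of -2.03 to -0.29, and 2 were lost. The one of smaller FDR, chr2:178727847-178729356, had a deposited 4.10 in knockout and 5.39 in control cells (-1.29, FDR 0.00308). Cdh16 of the kidney, Cdhr1 of photoreceptors, Cdhr3, and Cdhr5 of the intestinal brush border had 1, 1, 4 and 1 listed peaks and no call.

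Most non-clustered protocadherins fall into the delta-1 and delta-2 groups, which differ in the motifs of their inner tail. Pcdh12 was kept apart and had no listed peak, and Pcdh15 was placed with the other cadherins. Outside distal chromosome 14, delta-1 genes (Pcdh1, Pcdh7 and Pcdh11x) had 25 listed peaks, of which 3 were gained (beside 11.8% of all listed peaks there) and none lost (2.43% of all), with a deposited median of 0.45. Pcdh1, a receptor of New World hantaviruses, gained a peak annotated as a promoter 2.8 kb from an annotated start, chr18:38199954-38200409 (deposited 4.19 in knockout, 2.14 in control cells, 2.04, FDR 0.0107), while the peak over its RefSeq start was not called (deposited log2 fold 0.30). Pcdh11x, an X-linked gene of the brain, gained a peak annotated as exonic 934.1 kb from its TSS, chrX:121335432-121336104 (deposited 3.90 in knockout, 1.41 in control cells, 2.49, FDR 0.0119). The annotated exon was not assigned to Pcdh11x.

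The delta-2 genes outside the segment, Pcdh18 and Pcdh19, had 31 listed peaks, 1 gained (3.23%, beside the same 11.8%) and 3 lost (9.68%, beside 2.43%), with a deposited median of -0.66. All 3 losses were at Pcdh18, where 16 of 18 listed folds were negative. The strongest, chr3:49771402-49771944, lies 14.1 kb upstream of the gene, with a deposited concentration of 2.77 in knockout and 4.74 in control cells (log2 fold -1.97, FDR 8.72e-04). The other 2 lie 686.1 and 693.0 kb away (deposited -1.46 and -1.88). Pcdh19, whose human gene is mutated in an epilepsy of girls, gained a single peak 1722.4 kb from its TSS, chrX:131961723-131962628 (deposited 3.77 in knockout, 1.82 in control cells, 1.94, FDR 0.0483), and the peak over its start was not called (deposited log2 fold 0.49).

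In distal chromosome 14 each of the 4 members was gained at or close to its own start. The RefSeq promoters (GRCm38.p6, 250 bases before to 50 after the start) of the 3 with a gained peak over the start are printed to show how unlike in sequence these promoters were. Capitals mark GC boxes (GGGCGG on either strand) and CCAAT boxes (CCAAT on either strand). They stand at chr14:84443313-84443612 (plus strand) for Pcdh17, at chr14:93890630-93890929 (minus strand) for Pcdh9 and at chr14:88471347-88471646 (minus strand) for Pcdh20. The first 2 lie whole within their peak and the Pcdh20 one in part.
Pcdh17: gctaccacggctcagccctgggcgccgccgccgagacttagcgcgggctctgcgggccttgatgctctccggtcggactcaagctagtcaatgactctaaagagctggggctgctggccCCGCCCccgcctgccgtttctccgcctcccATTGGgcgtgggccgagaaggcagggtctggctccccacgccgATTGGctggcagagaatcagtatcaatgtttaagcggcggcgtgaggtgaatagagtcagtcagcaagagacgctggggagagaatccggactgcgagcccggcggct
Pcdh9: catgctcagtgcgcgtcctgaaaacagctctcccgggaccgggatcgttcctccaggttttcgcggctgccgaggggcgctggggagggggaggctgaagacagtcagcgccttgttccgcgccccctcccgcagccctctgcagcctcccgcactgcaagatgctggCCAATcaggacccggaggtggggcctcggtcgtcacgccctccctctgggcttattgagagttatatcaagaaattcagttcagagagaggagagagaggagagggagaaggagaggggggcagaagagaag
Pcdh20: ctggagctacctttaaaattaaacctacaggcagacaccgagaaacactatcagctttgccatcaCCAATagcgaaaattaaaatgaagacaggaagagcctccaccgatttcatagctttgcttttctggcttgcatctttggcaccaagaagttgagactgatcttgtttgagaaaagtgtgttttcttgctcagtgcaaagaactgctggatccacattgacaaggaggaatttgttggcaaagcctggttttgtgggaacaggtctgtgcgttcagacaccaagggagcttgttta
The Pcdh17 promoter is 65.0% G or C with 26 CpG, the Pcdh9 promoter 62.7% with 18, and the Pcdh20 promoter 43.7% with 4, against a median of 52.7% over all 32851 promoters of the table. GGGCGG occurs once in the Pcdh17 window and in 35.7% of all promoters, CCAAT in all 3 windows and in 37.4% of all, and the E-box CACCTG of Snail and Zeb factors in none of the 3 and in 20.2% of all. Of the 30 promoters of 27 member genes in the table, 9 held GGGCGG, 19 held CCAAT (63.3%) and 8 held CACCTG (26.7%). CCAAT was added after the sequences had been seen. A match is a description of the letters and shows no bound factor.

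Pcdh17, which controls the bundling of axons in the forebrain, was gained at the promoter, chr14:84442652-84448319, with a deposited concentration of 9.55 in knockout and 8.02 in control cells (log2 fold 1.53, FDR 9.02e-46). The CpG-rich window above lies at its upstream end. Its 25 intergenic peaks lie upstream of the gene within 178.4 kb, and 18 of all 27 listed peaks were gained, with 1 negative and uncalled (deposited -0.93). Pcdh8, the paraxial protocadherin of the early mesoderm, was gained 2.2 kb upstream of its start (deposited 6.05 in knockout, 4.80 in control cells, 1.25, FDR 1.39e-04) and, with the smaller FDR, 14.1 kb upstream at chr14:79785399-79787006 (deposited 5.39 in knockout, 3.36 in control cells, 2.02, FDR 7.38e-06).

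Pcdh9 and Pcdh20 stand in a stretch with few genes, so that many distant peaks carry their names. Pcdh9, a protocadherin of cortical neurons, had 304 listed peaks with 205 gained, and 303 folds were positive. Its promoter was gained (deposited 8.49 in knockout, 6.86 in control cells, 1.63, FDR 3.34e-30). The peak of smallest FDR among all members, which ranks 2 by p among all listed peaks, is intergenic and lies 905.5 kb upstream at chr14:94796216-94797474, with a deposited concentration of 8.93 in knockout and 6.52 in control cells (log2 fold 2.41, FDR 3.9e-69). This is a 5.31-fold higher level in the knockout.

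The folds of Pcdh9 peaks had like medians near to and far from the gene. The deposited median was 1.61 within 100 kb of the TSS (17 of 26 gained), 1.61 beyond 100 kb (188 of 278 gained) and 1.61 beyond 1 Mb (56 of 83 gained), and 1.55 over the 95 peaks in its own introns and exons. Pcdh20 had 138 listed peaks, all positive, with 93 gained and a deposited median of 1.62. Its promoter, the one of lowest G and C content among the 3 shown, was gained (chr14:88469259-88471469, deposited 7.17 in knockout, 5.83 in control cells, 1.34, FDR 4.43e-10). Peaks of 5 other genes between and around them had a deposited median of 1.66 (495 of 714 gained), so the folds of Pcdh9 and Pcdh20 stood at the level of their neighbourhood.

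**Figure D3:**
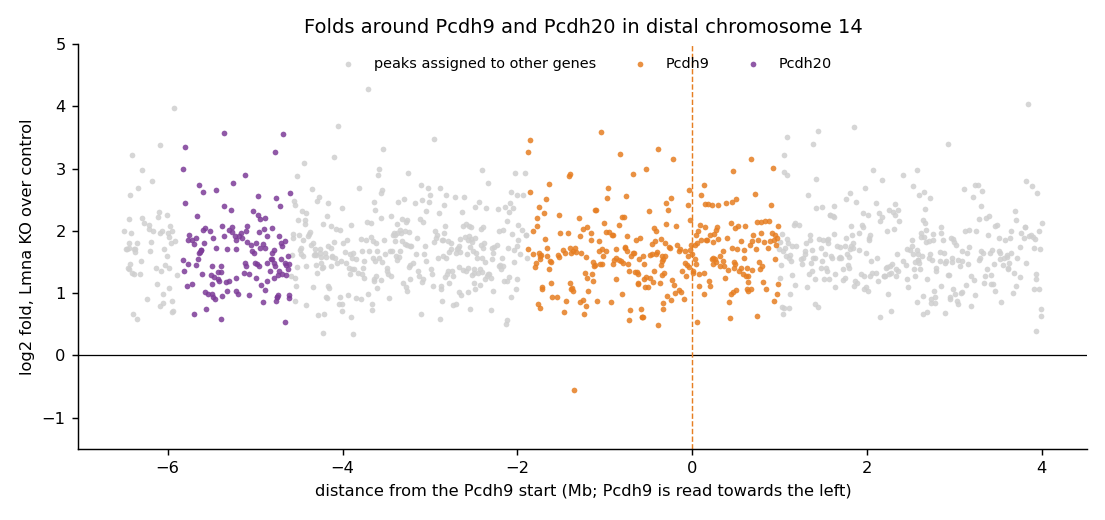
Deposited log2 fold (Lmna KO over control) of listed peaks against their distance from the Pcdh9 start in Mb, with peaks assigned to Pcdh9 in orange, Pcdh20 in purple and other genes in grey. Apart from 1 Pcdh9 peak at -0.55, all plotted folds are positive, with medians of 1.61 for Pcdh9, 1.62 for Pcdh20 and 1.66 for the other genes.

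The clustered protocadherins stand in 3 neighbouring arrays on chromosome 18, where each alpha or gamma variable exon has its own promoter and is spliced to exons shared by its array. In neurons CTCF and cohesin join a chosen promoter to a distant enhancer. The 3 arrays had 53 listed peaks at 38 of 58 RefSeq genes, with 2 gained (3.77%, beside 11.8% of all listed peaks outside distal chromosome 14) and 1 lost (1.89%, beside 2.43%) in the deposited table and a median log2 fold of 0.56. Alpha genes had 6 listed peaks (5 of 14 genes, 4 negative), beta genes 24 (17 of 22 genes, 20 positive) and gamma genes 23 (16 of 22 genes, 20 positive). These genes are related copies, and how reads that fit several of them were treated is not given in the sources used here.

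The called loss carries the name Pcdhac2 and lies at chr18:37178342-37178832, annotated as exonic, in the stretch spanned by 14 of 14 RefSeq alpha genes. Its deposited concentration was 2.78 in knockout and 4.48 in control cells (log2 fold -1.70, FDR 0.0122). The gain named Pcdhgc3, chr18:37786235-37786523, lies in the intronic stretch spanned by 19 of 22 gamma genes (deposited 3.71 in knockout, 1.63 in control cells, 2.08, FDR 0.0301). One promoter was gained, that of Pcdhga1 at chr18:37661483-37662471 (deposited 5.72 in knockout, 4.82 in control cells, 0.89, FDR 0.0458). The first 2 of these calls thus lie in stretches that several genes of an array share, and the name of each is that of the nearest start.

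Of the 53 listed peaks of the arrays, 43 were annotated as promoters and fell into 2 places relative to a gene's start. This pattern was noticed after the values were seen. There were 23 within 1 kb of a start (deposited median 0.52, 17 positive, 1 called) and 20 at 1387 to 2215 bases inside a gene (deposited median 0.69, 17 positive, none called). The other 10 lay elsewhere (deposited median 0.64, 8 positive), and 2 of them were called, the Pcdhac2 loss and the Pcdhgc3 gain. Among the 17 listed beta genes, 13 had an inside peak, 8 a start peak and 4 both. The inside peaks of beta genes lay at 1608 to 2215 bases, with a median of 1805.

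**Figure D4:**
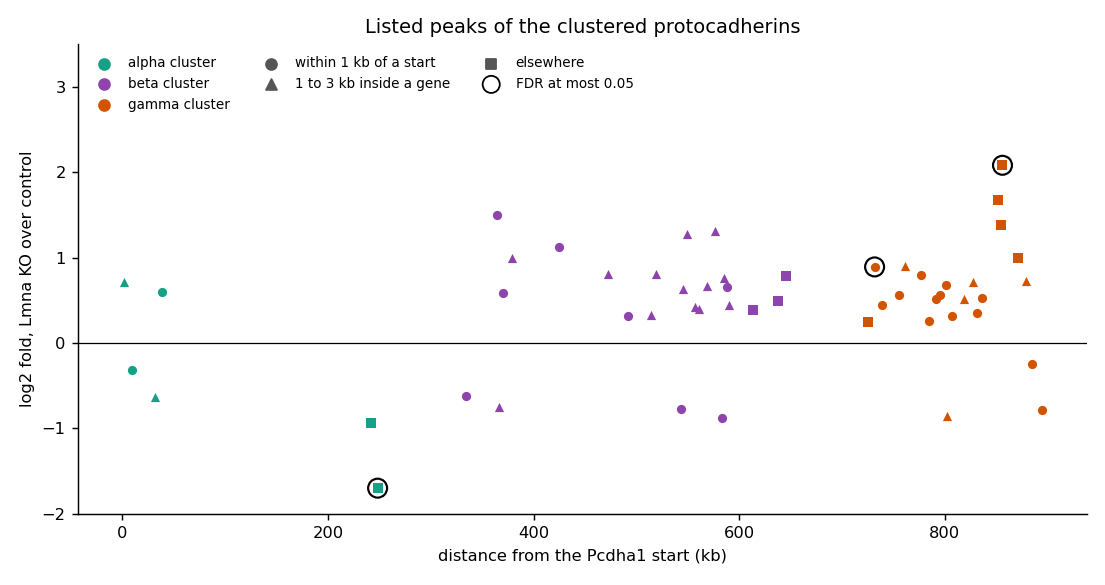
Deposited log2 fold (Lmna KO over control) of the 53 listed peaks of the clustered protocadherins against distance from the Pcdha1 start in kb, coloured by array; circles lie within 1 kb of a start, triangles 1 to 3 kb inside a gene and squares elsewhere, and rings mark the 3 called peaks. Most beta and gamma folds are positive (20 of 24 and 20 of 23) and 2 of 6 alpha folds are.

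At promoters, taken as peaks within 3 kb of an annotated start, 67 member peaks of 54 genes were listed outside distal chromosome 14. Of these, 4 were gained (5.97%, against 12.1% of all listed promoter peaks there) and none was lost (1.30% of all). Their deposited median was 0.49 against 0.41, and 73.1% were positive against 81.3%. That median rested largely on the clustered protocadherins, which held 43 of the 67 peaks. The other 24, of 17 genes, had a deposited median of 0.29, with 62.5% positive and 3 gained (12.5%). The 4 gained promoter peaks are those of Cdh1, Cdh4, Pcdh1 and Pcdhga1. All 12 losses thus lay outside promoters, as did 24 of the 28 gains.

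**Figure D5:**
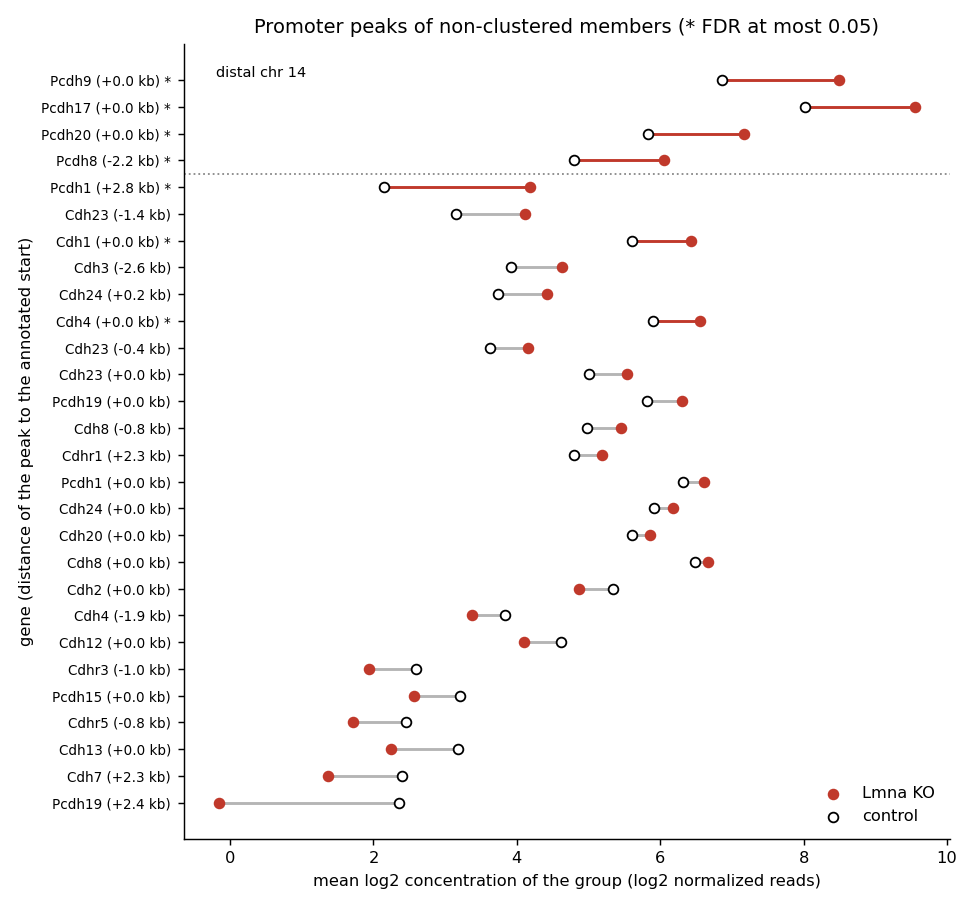
Deposited mean log2 concentration in Lmna KO (red) and control cells (open) at the 28 listed promoter peaks of 21 non-clustered members, with the distance of each peak to the annotated start in its label; a red line and a star mark FDR of 0.05 or less. All 4 promoter peaks in distal chromosome 14 are higher in the knockout cells, and below the dotted line 15 of 24 are, of which 3 are called.

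Member peaks were more distant and weaker than the listed peaks as a whole. Outside distal chromosome 14 their median distance to a TSS was 112.9 kb, against 14.6 kb, 47.5% were intergenic, against 35.5%, and 16.5% were at promoters, against 26.3%. The deposited median concentration was 3.36, against 4.02. Strength went with direction in both sets. Folds were positive in 30.8% of member peaks weaker than a mean concentration of 3, against 33.6% of all listed peaks, and in 75.4% of those at 5 or more, against 90.7%. Gained shares of members and of all listed peaks were 4.11% and 3.11% below 3, 4.84% and 7.77% from 3 to 4, 5.33% and 13.4% from 4 to 5, and 19.7% and 21.4% at 5 or more. At like strength, then, the gained shares lay closest in the weakest and strongest classes. They lay furthest apart from 4 to 5, where 4 of 75 member peaks were gained and 5 were lost. Lost shares of members and of all listed peaks were 1.37% and 3.83% below 3, 3.23% and 2.81% from 3 to 4, 6.67% and 2.44% from 4 to 5, and 1.64% and 0.923% at 5 or more. Across the 406 peaks, Spearman's rho between deposited fold and concentration was 0.30, against 0.18 over all listed peaks there, a description in which both measures come from the same reads.

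The stricter FDR of 0.01 was applied to the 406 member peaks outside distal chromosome 14. Of these, 9 were gained, beside 3264 of all 60705 listed peaks there (5.38%), and 7 were lost, beside 360 (0.593%). Just inside the FDR of 0.05 were Pcdh1 (0.0463), Pcdh19 (0.0483) and Cdh19 (0.0495, deposited log2 fold 2.14), all gained. Just outside were peaks of Cdh19 (0.0504, deposited log2 fold -1.81), Pcdh18 (0.0565, -1.23) and Cdh18 (0.0596, -2.70), all lower in the knockout cells.

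The gains depended on where the zero of the folds was set. Outside distal chromosome 14 the median fold of the 17010 listed peaks of concentration 5 or more was 0.43 on the log2 scale. Tested peaks with p above 0.422, whose folds are nearer 0, are missing from this median. The value may therefore be too high, which would lower the gained and raise the lost counts below. After subtracting 0.43, each peak was retested with the error implied by its deposited p. Of the 406 member peaks there, 4 were gained, beside 1458 of all 60705 listed peaks (2.40%), and 37 were lost, beside 4691 (7.73%). Of the 28 gains 4 passed again, those of Cdh13 (adjusted p = 0.00301), Cdh17 (0.0299), Pcdh15 (0.0423) and the intergenic gain of Cdh11, and of the 12 losses all 12 did, which subtracting a positive number cannot end. The Cdh1 promoter did not pass (centred log2 fold 0.39, adjusted p = 0.274), nor did that of Cdh4 (0.22, adjusted p = 0.791), and the Cdh2 peak at the internal start passed as lost (-0.89, adjusted p = 0.0472). In distal chromosome 14, 159 of the 318 gains passed again, among them the promoters of Pcdh9, Pcdh17 and Pcdh20.

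Genes that work with cadherins were counted by the same calls. Beside them stand 28.8% of all genes gained at a listed peak and 7.19% lost at one, and 16.1% and 2.26% of all listed peaks. Without distal chromosome 14 these shares were 28.2% and 7.24% of genes, and 11.8% and 2.43% of listed peaks. The called peaks of these lists named below all lie outside that segment. The lists differ in how many peaks their genes carry. Of 24 names for catenins and adherens junction proteins, 19 had listed peaks (152 peaks). The remaining names were older symbols of Afdn and the nectins, so no gene of this list lacked a listed peak. In the deposited data 20 of these peaks (13.2%), at 11 genes, were gained and 5 peaks (3.29%), at 4 genes, were lost. Jup, plakoglobin, which links cadherins of both junctions and desmosomes to the cytoskeleton, was gained at its promoter (chr11:100385123-100387113, deposited 6.53 in knockout, 5.27 in control cells, 1.26, FDR 2.54e-05). Ctnnd2, the neural delta-catenin, had an intronic gain (deposited log2 fold 1.49) and an intronic loss (-0.95). Afdn, afadin, gained an intronic peak (deposited 2.35). Plekha7 lost a peak downstream of the gene (deposited -1.23) and Ctnna2 an intergenic one 441.2 kb from its TSS (-1.03).

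Other members of the cadherin superfamily were all listed, 21 of 21, with 8 genes gained and 1 lost (12 gained and 1 lost of 86 peaks). Dsg2, the desmosomal cadherin of simple epithelia, was gained at its promoter (deposited 7.12 in knockout, 6.31 in control cells, 0.81, FDR 5.84e-04), and Fat3 gained a distal peak (deposited log2 fold 1.55). Dsc3 gained one distal peak (deposited 0.91) and lost another, weak one (deposited 0.57 in knockout, 2.97 in control cells, -2.40). Of 12 regulators of the clustered genes, 11 were listed, with 5 gained and 1 lost (10 gained and 1 lost of 44 peaks, 22.7% and 2.27%). They include the cohesin subunits Rad21 (deposited 1.19, at a peak annotated as exonic 21.1 kb from its TSS) and Smc3 (0.50, at its promoter). The cohesin release factor Wapl, also among them, had a distal gain (1.07). Wapl also had a loss at a weak peak annotated as a promoter (deposited 0.29 in knockout, 3.08 in control cells, -2.79).

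The transcription factors of the cadherin switch, which repress or keep up Cdh1, were all listed, 9 of 9. By the deposited FDR, 4 of them were gained at a peak and 2 lost at one (4 gained and 2 lost of 34 peaks, 11.8% and 5.88%). Among the repressors, Zeb1 and Snai2 gained peaks (deposited log2 fold 2.11 and 1.53) and Zeb2 lost one (-1.14). Grhl2, which keeps up E-cadherin in epithelia, gained one intergenic peak (deposited 1.05). It lost another, weak one (deposited 0.52 in knockout, 3.40 in control cells, -2.87). The direction was thus mixed within this list. At the retest described above, the named gains of Jup, Ctnnd2, Afdn, Fat3, Rad21 and Wapl in these lists passed again. Those of Dsg2, Dsc3, Smc3, Zeb1, Snai2 and Grhl2 did not (centred log2 fold 0.07 at Smc3 and 0.38 at Dsg2). All named losses passed, which subtracting a positive number cannot end.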

How the data were processed

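The 6 ATAC-seq libraries were 3 of Lmna knockout and 3 of control embryonic stem cells. Per the submitters' processing notes, the tools were Bowtie2, Trimmomatic 0.39, MACS2, DiffBind, DESeq2, ChIPseeker, SAMtools, bedtools 2.28.0, Picard 1.119 and deepTools, and the build was mm10. How they were set, whether reads were shifted for Tn5, how reads with several matches were treated, and which normalization and model gave the p-values is not given in the sources used here. The authors' deposited table gives log2 concentrations per group and a log2 fold, which was checked to be knockout minus control to within 0.01. It also holds the authors' p-value and FDR for each peak, its coordinates, annotation class and symbol.

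From these, peaks were selected by symbol, counted by FDR (0.05) and sign, and grouped by role. Genes with a called peak were named with their called peak of smallest FDR, partner lists with up to 3 genes per direction, and Cdh1, Cdh2 and Cdh3 also with the listed peak nearest the TSS. Members and lists were chosen with earlier results of these data known. The number of tested peaks was taken from FDR, rank and p. For the retest, a standard error was derived from each fold and deposited p by a normal test, and unlisted peaks were entered as unchanged. The arithmetic of the step was checked on simulated data in which the offset was known and all peaks were listed. That check could not test the estimate of the offset or the effect of the unlisted peaks. Planned fits on read counts were not run, since values per library were not analysed here. The 73 listed symbols were all found in RefSeq of GRCm38.p6, the assembly of mm10, which gave gene spans and promoter sequences. The software was SciPy 1.17.1, pandas 2.3.3, numpy 2.4.6 and matplotlib 3.10.9 under Python 3.11.15.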

Additional observations from a re-analysis of the deposited data

How the results depend on the processing

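The counts of called member peaks moved with most settings. An FDR of 0.01 left 212 gained peaks, at 11 genes, and 7 lost ones. Among peaks with an absolute fold of 1 or more on the log2 scale, the median was 1.54. At or above the median concentration there were 199 gained and 6 lost peaks, 3 genes with a lost peak and a median of 1.19. Without distal chromosome 14 there were 28 gained peaks and a median of 0.25. Centred and retested, 163 peaks at 8 genes were gained and 37 at 13 genes were lost, with a median of 0.69. Without the clustered protocadherins the median was 1.19. Within 3 kb of a TSS 8 peaks at 8 genes were gained and 0 peaks at 0 genes were lost, with a median of 0.52. Further settings were chosen after seeing the data. Within 100 kb of a TSS there were 57 gained and 4 lost peaks, with a median of 0.65, and without distal chromosome 14 as well 13 gained and 4 lost peaks, 12 genes with a gained peak and a median of 0.40. Without the clustered protocadherins and distal chromosome 14 there were 26 gained peaks and a median of -0.40. Centred and retested without distal chromosome 14 4 peaks at 4 genes were gained and 37 at 13 genes were lost, with a median of -0.18. In these last 2 settings the median turned its sign. Of the 26 named peaks, 14 passed at an FDR of 0.01 and 13 passed the retest. Subtracting an offset and leaving out peaks lower or raise these counts by construction, and no other cause was tested. No paired analysis was possible because only means of each group are given, without single libraries, and leaving out each replicate was not run for that reason. Peaks with p above 0.422 are not analysed here, and the depth per library is unknown.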
